A study of Mus musculus with 12 samples.

Results

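Regulatory T cells (Treg) from a tumour were compared with Treg from the spleen of the same kind of tumour-bearing (TB) mice, across all genes. The comparison used 4 of the 12 RNA sequencing libraries of the study, 2 of tumour Treg and 2 of TB spleen Treg, chosen by their sample labels. Tumour Treg were CD4+GFP+ cells from the tumour of C57BL/6 mice, sorted 3 weeks after 500000 TC-1 cells had been injected into the tail vein. TB spleen Treg were CD4+GFP+ cells from the spleen of mice treated in the same way. TC-1 is a mouse lung epithelial line transformed with papillomavirus oncogenes and an activated Ras gene. The other 8 libraries, 2 per group, were tumour Tconv and TB spleen Tconv (CD4+GFP- conventional T cells of these mice) and Treg and Tconv from the spleen of normal mice, which had no tumour. All 6 groups came from C57BL/6 mice, were enriched for CD4+ cells by negative selection and were sorted by GFP. The labels do not name the reporter allele, and they do not say whether the 2 libraries of a group came from separate mice or from pools, so p values measure the spread between these libraries, which may be technical. No group came from the organ that held the tumour in mice without one, so a tumour difference and an organ difference cannot be told apart.

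Treg restrain other immune cells. They depend on the transcription factor Foxp3 and on signals through the T cell receptor, the interleukin 2 receptor and costimulatory receptors. Resting Treg of lymphoid organs recirculate, whereas effector Treg of tissues and tumours carry activation markers, tissue-homing receptors, suppressive receptors and, in part, the interleukin 33 receptor ST2 and repair factors such as amphiregulin. The series title names IL-33 and ST2.

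The 4 libraries held 22004608 to 24111546 counts, and the 12 together 18624132 to 24111546. Enough counts for a test were found for 13509 of 24062 genes. Levels are given per library as CPM, the counts scaled to a common library size with TMM factors, and differences as log2 fold changes ± SE, tumour Treg over TB spleen Treg, with a gene called at a Benjamini-Hochberg adjusted p under 0.05 in edgeR's quasi-likelihood test. Reads were not divided by gene length, so levels are compared between libraries and not between genes. In sorted bulk RNA, fewer cells that express a gene and less RNA per cell cannot be told apart. The sort was checked by its defining genes. Foxp3 (chromosome X, 7573644 to 7595245, mm10) had 1155 and 1247 CPM in tumour Treg, against 1028 and 1004 CPM in TB spleen Treg, with a log2 fold change of 0.24 ± 0.11 (adjusted p = 0.0800) that was not called. It was called without tumour Tconv library 1 (edgeR adjusted p = 0.0214) or library 2 (0.0271), with only the 4 libraries compared (0.0168), with only the Treg libraries (0.00617), with limma-voom (0.0275) and with DESeq2 (0.0109), at log2 fold changes of 0.22 to 0.28. Cd4, the coreceptor used for enrichment, had 959.7 and 1121 CPM in tumour Treg, against 1174 and 1044 CPM in TB spleen Treg, and was not called (−0.09 ± 0.09). Cd8a, which marks CD8 T cells, was called higher (1.96 ± 0.49) at 1.95 and 1.79 CPM in tumour Treg, against 0.450 and 0.508 CPM in TB spleen Treg.

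Transcripts of cells other than T cells were more frequent in the tumour libraries, as a whole at a low level. Fibroblast markers took up 0.0829% and 0.0922% of counts in tumour Treg, against 3.38e-04% and 5.54e-04% in TB spleen Treg, and 11 of 11 tested were called higher. Macrophage and monocyte markers took up 0.0447% and 0.0576% of counts in tumour Treg, against 7.81e-04% and 0.00129% in TB spleen Treg (14 of 14 tested called higher), markers of lung and tumour epithelium 0.0560% and 0.0450% of counts in tumour Treg, against 0.0184% and 0.0187% in TB spleen Treg (13 of 16), and neutrophil markers 0.00407% and 0.00359% of counts in tumour Treg, against 3.47e-05% and 6.50e-04% in TB spleen Treg (6 of 10). Dendritic cell markers took up 0.00487% and 0.00449% of counts in tumour Treg, against 6.37e-04% and 7.54e-04% in TB spleen Treg (4 of 6 called higher). Endothelial markers took up 0.0104% and 0.0125% of counts in tumour Treg, against 0.0210% and 0.0217% in TB spleen Treg (4 of 6 higher and 1 lower), and those of CD8 T and NK cells 0.00274% and 0.00301% in tumour Treg, against 0.00365% and 0.00346% in TB spleen Treg (3 of 6 higher and 2 lower). Mast cell and basophil markers took up 0.000912% and 0.00104% of counts in tumour Treg, against 0.000286% and 0.000350% in TB spleen Treg (1 of 2 higher and 1 lower). Of the B cell and erythroid markers most were too low to test, and the 2 B cell markers and 1 erythroid marker tested were not called. Of the 16 epithelial markers, 8 were at 0 in both spleen libraries, as were 7 of 12 fibroblast markers, while in tumour Treg every one of these markers was counted in both libraries. The same markers were higher in tumour Tconv than in TB spleen Tconv (11 of 11 fibroblast, 14 of 14 macrophage and 13 of 16 epithelial). A marker at 0 in both TB spleen Treg libraries could pass the count filter only through other libraries. The numbers of tested markers called higher were therefore partly fixed by the filter. The part of cells other than T cells in the results below was not tested, except where a value is given.

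Most of the genes tested were called different between tumour Treg and TB spleen Treg. Of the 13509 genes tested, 8299 were called (61.4%), 4427 of them higher in tumour Treg (32.8%) and 3872 lower (28.7%). At 2-fold or more the split was uneven, with 2319 genes higher (17.2%) and 889 lower (6.58%). At 16-fold or more it was 902 against 23. Of the 902 genes, 675 had at most 3 counts over both spleen libraries, 188 reached a mean of 10 CPM in tumour Treg, and all 902 together made up 1.53% and 1.65% of the counts in tumour Treg, against 0.0431% and 0.0422% in TB spleen Treg. In Tconv, 867 of the 902 were also called higher in tumour than in TB spleen, where 26.4% of all genes were called higher and 22.8% lower. Genes with so few spleen counts could pass the filter only through libraries other than those of TB spleen Treg. Among the 7524 well-counted genes, meaning a mean of at least 4 on the log2 CPM scale over the 4 libraries, 463 were higher and 215 lower by 2-fold or more. The median log2 fold change over all genes was 0.02.

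The 12 well-counted genes with the largest increases, markers of other cells left out, included growth factor, matrix and chemokine genes and a cell cycle inhibitor. Areg (chromosome 5, 91139599 to 91148432), the epidermal growth factor receptor ligand amphiregulin, had 322 and 412 CPM in tumour Treg, against 3.60 and 4.19 CPM in TB spleen Treg (6.56 ± 0.15). Thbs1, the matrix glycoprotein thrombospondin, had 360.3 and 414 CPM in tumour Treg, against 3.07 and 2.12 CPM in TB spleen Treg (7.22 ± 0.44). Cdkn1a, the cyclin-dependent kinase inhibitor p21, had 115 and 120.4 CPM in tumour Treg, against 2.45 and 2.41 CPM in TB spleen Treg (5.59 ± 0.21). In each of these the tumour libraries lay close together and far above the spleen libraries. Plac8, a small cysteine-rich protein of lymphoid and myeloid cells, had 353 and 244 CPM in tumour Treg, against 4.42 and 4.44 CPM in TB spleen Treg (6.07 ± 0.28), and in Tconv it was not called (0.11). Gem, a small GTPase induced by mitogens, had 268 and 275 CPM in tumour Treg, against 9.77 and 9.27 CPM in TB spleen Treg (4.83 ± 0.11), and Cxcl10, an interferon-induced chemokine, had 206 and 174 CPM in tumour Treg, against 8.05 and 8.25 CPM in TB spleen Treg (4.54 ± 0.19). The libraries of each group lay close together for both genes. Lack of overlap between the groups was required of this set and held for 81.1% of all genes tested. The membrane protein Emp1 (5.28 ± 0.41), the synaptic vesicle glycoprotein Sv2c (5.23 ± 0.23), the endocytic receptor Lrp1 (5.06 ± 0.40) and the peptide-processing enzyme Cpe (4.78 ± 0.44) completed this set together with the transcription factors Fosb (4.74 ± 0.70) and Klf4 (4.60 ± 0.27). Thbs1, Lrp1 and Cpe are also made by stromal or myeloid cells, whose markers moved with the tumour as given above. Fosb had 332 and 392 CPM in tumour Treg, against 23.5 and 3.51 CPM in TB spleen Treg. Its spleen libraries were uneven, and leaving out the first of them moved the log2 fold change to 6.68 and leaving out the second to 3.94. Klf4 was at 5.31 without TB spleen Treg library 1.

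**Figure D1:**
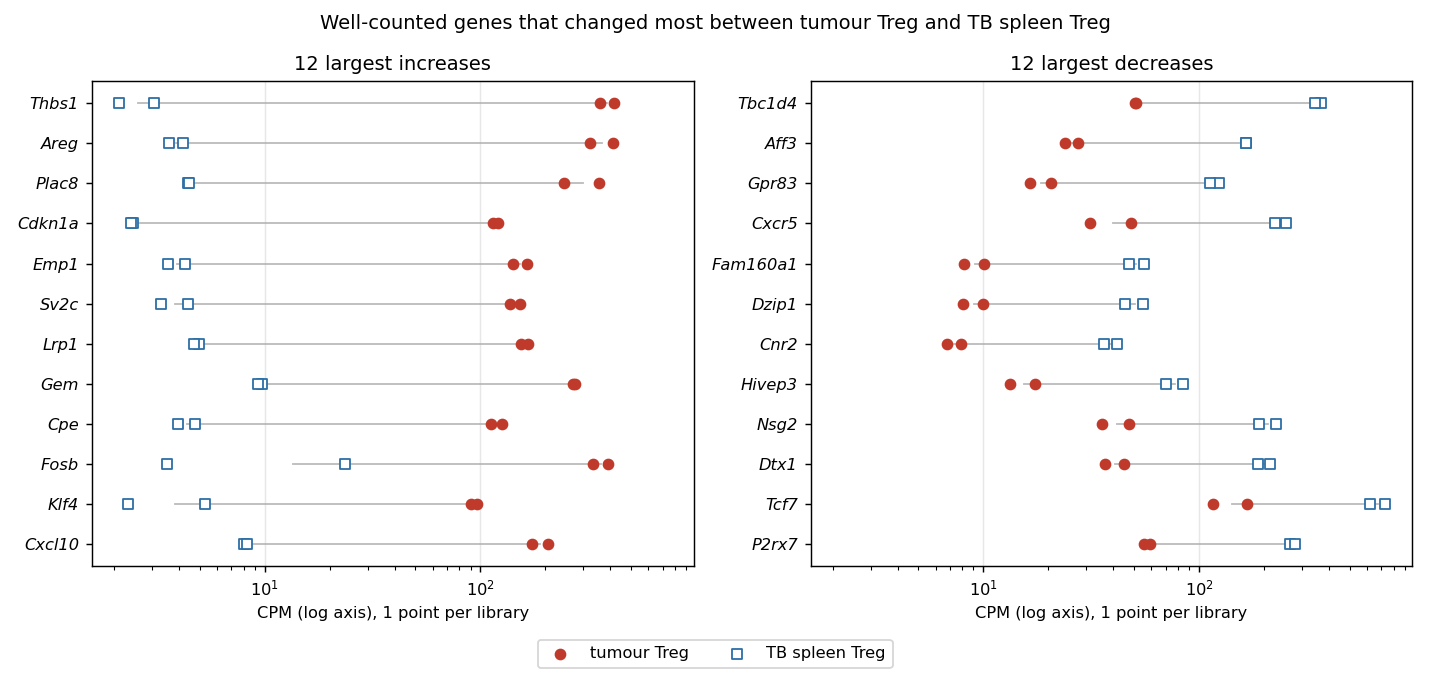
CPM of each library on a log axis for 12 well-counted genes that increased most and 12 that decreased most, with filled circles for tumour Treg, open squares for TB spleen Treg and a grey line between the means. Genes were chosen only among those whose libraries did not overlap between the groups, which held for 81.1% of all genes tested. The TB spleen Treg libraries of Fosb and Klf4 lay apart from each other.

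The largest decreases included genes of resting and follicular T cells. Tbc1d4 (chromosome 14, 101442360 to 101609191), a Rab GTPase-activating protein that holds back glucose transporter traffic, had 50.2 and 50.9 CPM in tumour Treg, against 367 and 345 CPM in TB spleen Treg (−2.81 ± 0.13). Cxcr5, the receptor that leads T cells to B cell follicles, had 31.3 and 48.6 CPM in tumour Treg, against 254 and 225 CPM in TB spleen Treg (−2.58 ± 0.24). Tcf7 (chromosome 11, 52252371 to 52283014), which encodes the naive and memory T cell factor TCF-1, had 116 and 167 CPM in tumour Treg, against 728 and 617 CPM in TB spleen Treg (−2.25 ± 0.14). The decrease left a clear residual level of each in both tumour libraries. Gpr83, a receptor typical of Treg, had 16.4 and 20.7 CPM in tumour Treg, against 124 and 113 CPM in TB spleen Treg (−2.68 ± 0.11), and P2rx7, the ATP-gated channel that can trigger T cell death, had 55.5 and 59.2 CPM in tumour Treg, against 265 and 279 CPM in TB spleen Treg (−2.25 ± 0.11). Others were the nuclear factor Aff3 (−2.69 ± 0.09), the zinc finger factor Hivep3 (−2.33 ± 0.15), the Notch regulator Dtx1 (−2.30 ± 0.13), the ciliary gene Dzip1 (−2.48 ± 0.13), the cannabinoid receptor Cnr2 (−2.41 ± 0.12), Fam160a1 (−2.49 ± 0.27) and Nsg2 (−2.33 ± 0.12).

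By change in CPM rather than by ratio, other genes led. CPM were not divided by gene length, so this order is not one of RNA molecules. Among genes called with at least a 2-fold change, Tnfaip3, which encodes the ubiquitin editing NF-kB inhibitor A20, gained most, with 4253 and 4166 CPM in tumour Treg, against 568 and 512 CPM in TB spleen Treg (2.96 ± 0.12). It was followed by the intermediate filament gene Vim (3605 and 3343 CPM in tumour Treg, against 608 and 745 CPM in TB spleen Treg), the inhibitory receptor Ctla4 and the AP-1 subunit Junb. Rgs2, a brake on G protein signalling, had 1813 and 1651 CPM in tumour Treg, against 91.9 and 78.3 CPM in TB spleen Treg (4.35 ± 0.11), and Odc1, the first enzyme of polyamine synthesis, had 1449.8 and 1670.4 CPM in tumour Treg, against 192 and 210.4 CPM in TB spleen Treg (2.95 ± 0.13). The TNF receptor Tnfrsf1b, the costimulator Icos, Fam107b and the receptor P2ry10 made up the rest of the 10 largest gains. The largest losses were smaller. Txnip, an arrestin-fold protein that limits glucose uptake and binds thioredoxin, lost most, with 515 and 529 CPM in tumour Treg, against 1439 and 1487 CPM in TB spleen Treg (−1.49 ± 0.11), followed by the condensin subunit Smc4 (−1.24 ± 0.08) and Tcf7. Among the others were the folate receptor family member Folr4, known on Treg (−1.36 ± 0.14), utrophin (Utrn, −1.35 ± 0.08) and the cytokine precursor Il16 (−1.34 ± 0.06).

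Genes were then described in 75 lists of pathways, families and cell markers, each read against the background of 32.8% of genes called higher and 28.7% called lower. Of the 75 lists, 58 had more members higher than lower. With library-size scaling in place of TMM, the median of all genes moved from 0.02 to −0.14 with 3491 calls higher and 5267 lower, so lists with medians near 0 have no direction that is free of the scaling.

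**Figure D2:**
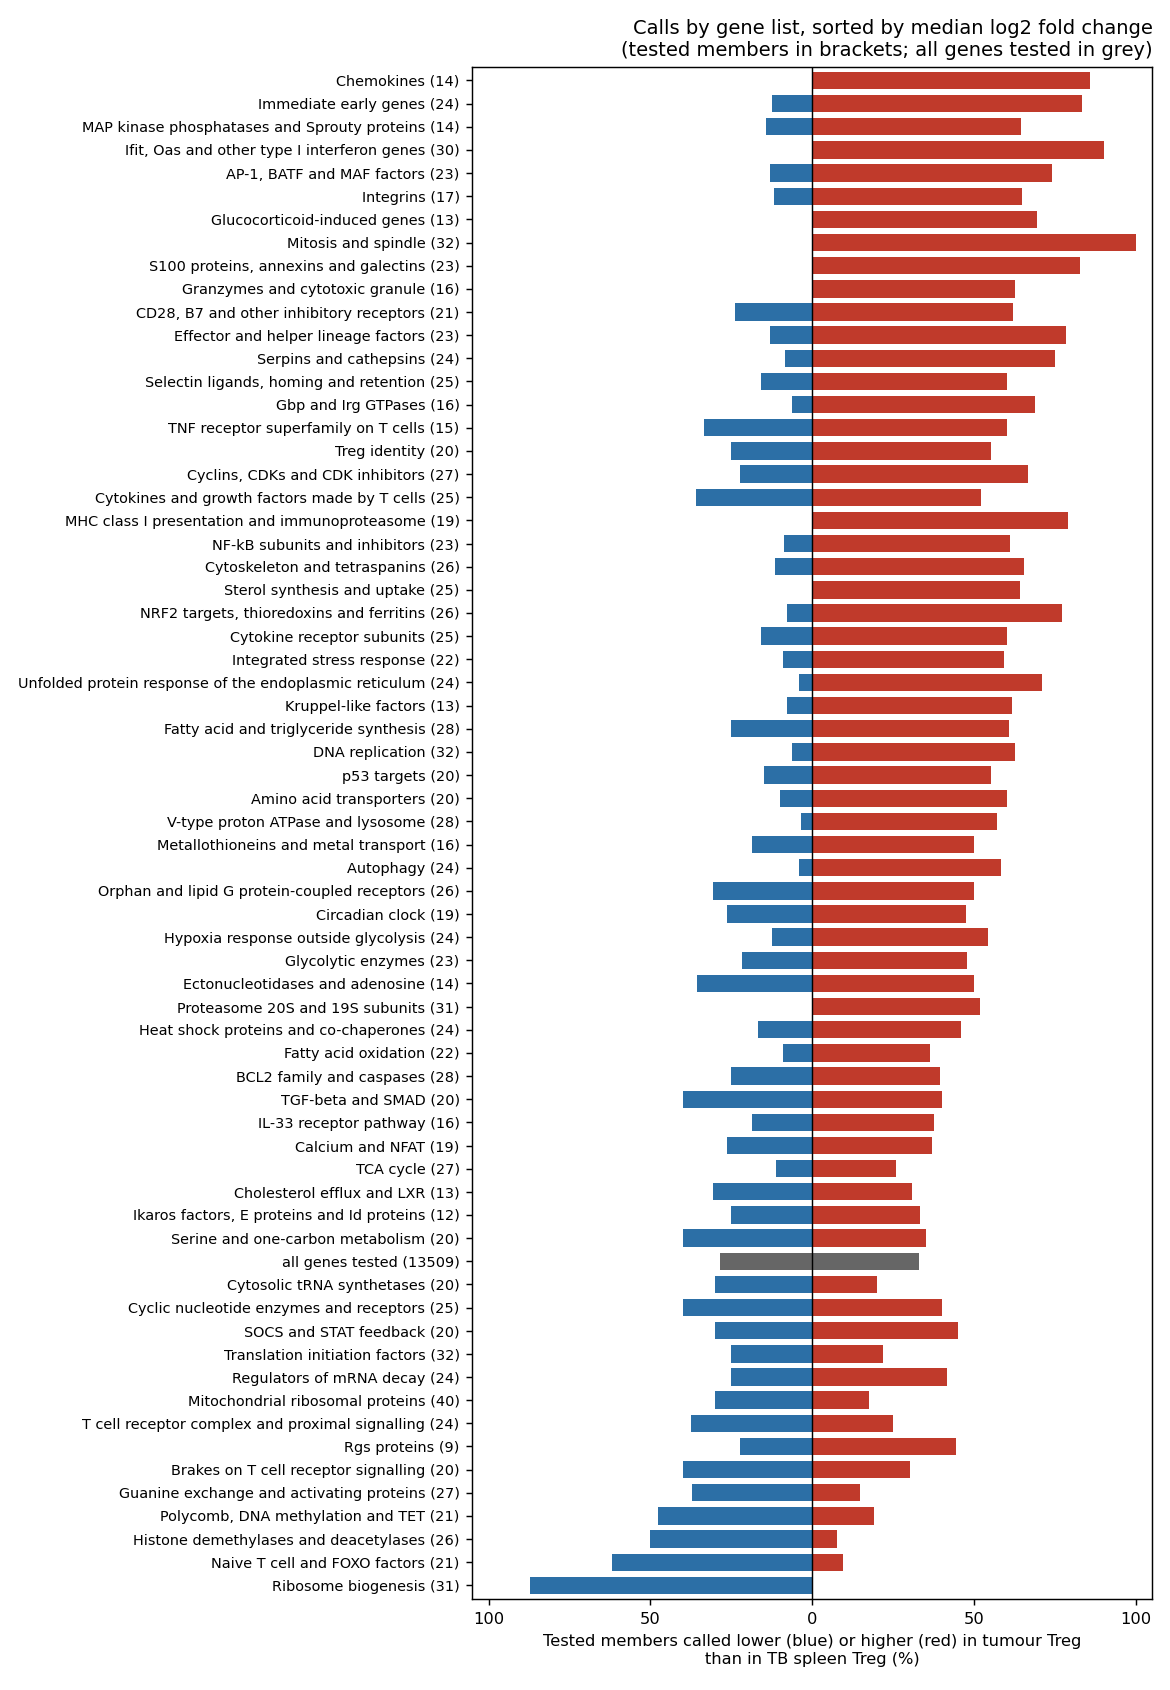
Share of the tested members of each gene list called higher (red, to the right) or lower (blue, to the left) in tumour Treg than in TB spleen Treg, sorted by median log2 fold change, with all 13509 genes in grey. Mitosis genes were all higher, interferon, chemokine and immediate early genes mostly higher, and ribosome biogenesis and naive T cell factors mostly lower.

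Surface receptors of costimulation and inhibition rose, while the T cell receptor genes included changes in both directions. In the list of CD28, B7 and other inhibitory receptors, 13 of 21 rose and 5 fell (median 0.96). Havcr2, the exhaustion-associated receptor TIM-3, had 126 and 139 CPM in tumour Treg, against 6.50 and 11.2 CPM in TB spleen Treg (3.91 ± 0.21), and Ctla4, which removes B7 ligands from antigen-presenting cells, had 3086 and 3043 CPM in tumour Treg, against 703 and 699 CPM in TB spleen Treg (2.13 ± 0.11). Icos had 1923 and 2003 CPM in tumour Treg, against 489.5 and 502 CPM in TB spleen Treg (1.99 ± 0.06), and the inhibitory lectin Klrg1 had 369 and 323 CPM in tumour Treg, against 63.2 and 87.1 CPM in TB spleen Treg (2.20 ± 0.21). In each the tumour libraries were well above the spleen libraries. Btla (−1.66 ± 0.10) and Cd160 (−3.59 ± 0.21), both receptors for the TNF family member HVEM, fell, and Cd160 had only 1.39 and 1.01 CPM in tumour Treg, against 15.0 and 13.9 CPM in TB spleen Treg. TNF receptors rose in 9 of 15 and fell in 5 (median 0.63). The costimulator Tnfrsf9 (4-1BB) had 1459.8 and 1506 CPM in tumour Treg, against 482 and 462 CPM in TB spleen Treg (1.65 ± 0.10) and Tnfrsf1b, which supports Treg survival, 2621 and 2223 CPM in tumour Treg, against 827 and 801 CPM in TB spleen Treg (1.57 ± 0.11). Tnfrsf26 (−1.66 ± 0.08), Tnfrsf25 (−0.71 ± 0.10) and Cd27 (−0.55 ± 0.09) fell.

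Of 24 genes of the T cell receptor complex and its proximal signalling, 6 rose and 9 fell (median −0.08), a split that became 6 and 6 with DESeq2 size factors and 5 and 15 with library-size scaling. The adaptor Bcl10 rose (0.66 ± 0.07), while protein kinase C theta, Prkcq, fell (−1.07 ± 0.09). Prkcq had 177 and 218 CPM in tumour Treg, against 413 and 414 CPM in TB spleen Treg. Among the brakes on this pathway the adaptor Sla (0.97 ± 0.09) rose, and the adaptor Lax1 (−1.57 ± 0.10) and the phosphatase Ptpn6 (−1.10 ± 0.11) fell. In the calcium list the channel subunit Orai1 had 132 and 131 CPM in tumour Treg, against 56.3 and 51.3 CPM in TB spleen Treg (1.29 ± 0.10), while Nfatc1, an inducible calcium-responsive factor, fell (−0.77 ± 0.12). These lists held opposite changes, so their medians say little.

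Inhibitors and feedback regulators of NF-kB and MAP kinase signalling rose together with the AP-1 factors. In the list of NF-kB subunits and inhibitors 14 of 23 rose and 2 fell (median 0.53). The nuclear IkB family members Nfkbiz (772 and 779 CPM in tumour Treg, against 92.4 and 77.4 CPM in TB spleen Treg, 3.19 ± 0.14) and Nfkbid (1.81 ± 0.12) rose. The cytoplasmic inhibitor Nfkbia also rose (980.4 and 915 CPM in tumour Treg, against 355 and 333 CPM in TB spleen Treg, 1.46 ± 0.07), while the kinase Ikbke fell (−0.66 ± 0.06). Of MAP kinase phosphatases and Sprouty proteins 9 of 14 rose and 2 fell (median 1.59). Dusp4, a nuclear phosphatase of ERK and other MAP kinases, had 938 and 793 CPM in tumour Treg, against 51.1 and 44.2 CPM in TB spleen Treg (4.18 ± 0.14), and Dusp5, specific for ERK, had 449 and 466 CPM in tumour Treg, against 43.6 and 40.7 CPM in TB spleen Treg (3.44 ± 0.10). Spry1, a Ras pathway inhibitor, fell (−1.02 ± 0.13), although it was higher in tumour in Tconv (1.11).

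AP-1, BATF and MAF factors rose in 17 of 23 and fell in 3 (median 1.48). Fosl2 had 1135 and 1247 CPM in tumour Treg, against 54.8 and 53.9 CPM in TB spleen Treg (4.45 ± 0.17). Bach2, a repressor that competes with AP-1 and preserves resting Treg, had 24.3 and 35.9 CPM in tumour Treg, against 121 and 111 CPM in TB spleen Treg (−1.95 ± 0.13), lower in both tumour libraries. Immediate early genes rose in 20 of 24 (median 2.16) and took up 1.49% and 1.52% of counts in tumour Treg, against 0.457% and 0.322% in TB spleen Treg. The 3 that fell were Egr2 (−1.73 ± 0.20), Egr3 (−1.35 ± 0.14) and Myc (−0.96 ± 0.12), of which the first pair respond to T cell receptor signals through NFAT. Immediate early genes also respond to tissue digestion and handling, and the design text gives a single description of how spleen and tumour were made into single cells. The part of handling in these values was not tested. Regulators of mRNA decay held strong single changes, with the RNases Zc3h12a, regnase-1 (286 and 276 CPM in tumour Treg, against 52.1 and 41.5 CPM in TB spleen Treg, 2.59 ± 0.12), and N4bp1 (679 and 646 CPM in tumour Treg, against 199.5 and 194 CPM in TB spleen Treg, 1.75 ± 0.07) higher. The median of this list changed sign with the scaling (−0.02 with TMM and 0.02 with DESeq2 size factors).

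The effector programme of transcription factors rose and the naive one fell. Of effector and helper lineage factors 18 of 23 rose and 3 fell (median 0.88). Bhlhe40, which supports effector cytokines and mitochondrial fitness, had 1200.0 and 1227 CPM in tumour Treg, against 147 and 132 CPM in TB spleen Treg (3.12 ± 0.20). Pparg, a lipid-sensing nuclear receptor of tissue Treg, had 12.3 and 12.8 CPM in tumour Treg, against 2.00 and 2.24 CPM in TB spleen Treg (2.56 ± 0.32), at a low level. Vdr, the vitamin D receptor, had 9.38 and 6.95 CPM in tumour Treg, against 1.02 and 1.48 CPM in TB spleen Treg (2.70 ± 0.31). Both Pparg and Vdr were low in count. Their groups did not overlap, which held for 81.1% of all genes tested. Eomes (−1.77 ± 0.25), Zbtb7b (−0.79 ± 0.10) and Tox (−0.40 ± 0.09) fell. Of naive T cell and FOXO factors 13 of 21 fell and 2 rose (median −0.29). Those that fell included Tcf7, Bach2, Txnip, a known FOXO target, and Pik3ip1, an inhibitor of phosphoinositide 3-kinase (−1.46 ± 0.11). In Tconv the same list had 9 higher and 4 lower (median 0.19), against 26.4% and 22.8% of all genes there, and 15 of its 21 members differed in site change between Treg and Tconv.

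Kruppel-like factors rose in 8 of 13 and fell in 1. Klf6 had 888 and 946 CPM in tumour Treg, against 214 and 219 CPM in TB spleen Treg (2.08 ± 0.08), and Klf3, a repressor of trafficking genes, had 45.3 and 73.4 CPM in tumour Treg, against 220.0 and 210.0 CPM in TB spleen Treg (−1.86 ± 0.16), lower in both tumour libraries. Among Id proteins, which block E protein transcription factors, Id2 and Id3 moved in opposite directions. Id2 had 676 and 674 CPM in tumour Treg, against 82.0 and 81.7 CPM in TB spleen Treg (3.04 ± 0.13) and Id3 had 20.2 and 22.2 CPM in tumour Treg, against 47.2 and 43.8 CPM in TB spleen Treg (−1.10 ± 0.25). The basic leucine zipper repressor Nfil3 rose (2.91 ± 0.13). Of 13 glucocorticoid-induced genes 9 rose and 0 fell (median 1.39), among them the kinase Sgk1 (186 and 192 CPM in tumour Treg, against 22.2 and 23.1 CPM in TB spleen Treg, 3.06 ± 0.17), the receptor tyrosine kinase inhibitor Errfi1 (3.70 ± 0.22) and Cebpb (2.72 ± 0.19). Of the 13, the phosphatase gene Dusp1 is also on the immediate early list.

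Chromatin regulators and zinc finger factors were lower. Of histone demethylases and deacetylases 13 of 26 fell and 2 rose (median −0.23). Hdac9, a deacetylase known to limit Treg function, had 7.86 and 9.13 CPM in tumour Treg, against 30.9 and 28.6 CPM in TB spleen Treg (−1.81 ± 0.23), and Hdac7 had 149 and 158 CPM in tumour Treg, against 250.2 and 224 CPM in TB spleen Treg (−0.63 ± 0.08). The H3K27 demethylase Kdm6b rose instead, with 357 and 446 CPM in tumour Treg, against 186 and 157 CPM in TB spleen Treg (1.23 ± 0.11). Of Polycomb, DNA methylation and TET genes 10 of 21 fell and 4 rose. Tet1, which oxidises methylated cytosine, fell (−2.09 ± 0.14), while the replication-linked factor Uhrf1 rose (0.98 ± 0.16).

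Zinc finger genes with the symbol Zfp followed by a digit, most of which encode DNA-binding C2H2 zinc finger proteins, formed the broadest decrease of any symbol family examined. Of 313 tested, 210 fell (67.1%) and 19 rose (6.07%), with a median of −0.59 against 0.02 for all genes. The 156 members with the lower levels had a median of −0.76 and the other 157 one of −0.47. Longer genes had slightly lower fold changes in general, with a median of 0.15 among the 2680 genes of shortest exonic length and −0.08 among the 2679 of longest. The 54 Zfp genes among the longest had a median of −0.60, and the 30 among the shortest one of −0.02. Those of the length groups between had medians of −0.56 (79 genes), −0.64 (72 genes) and −0.69 (78 genes), from shorter to longer. The median of all 313 Zfp genes stayed between −0.75 and −0.55 under the alternatives run. In Tconv 176 of 313 Zfp genes fell and 29 rose (median −0.44). Among the other symbol families, more members fell than rose in some, with 24 of 44 Usp deubiquitinases lower and 6 higher, 18 of 36 Ddx RNA helicases lower and 5 higher, and 15 of 29 Polr RNA polymerase subunits lower and 4 higher. More rose than fell in others, with 8 of 13 Klf factors higher and 1 lower, 13 of 28 Fox factors higher and 7 lower, 32 of 57 Rab GTPases higher and 8 lower (median 0.41), and 45 of 78 genes with a Cd number higher and 11 lower (median 0.41).

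**Figure D3:**
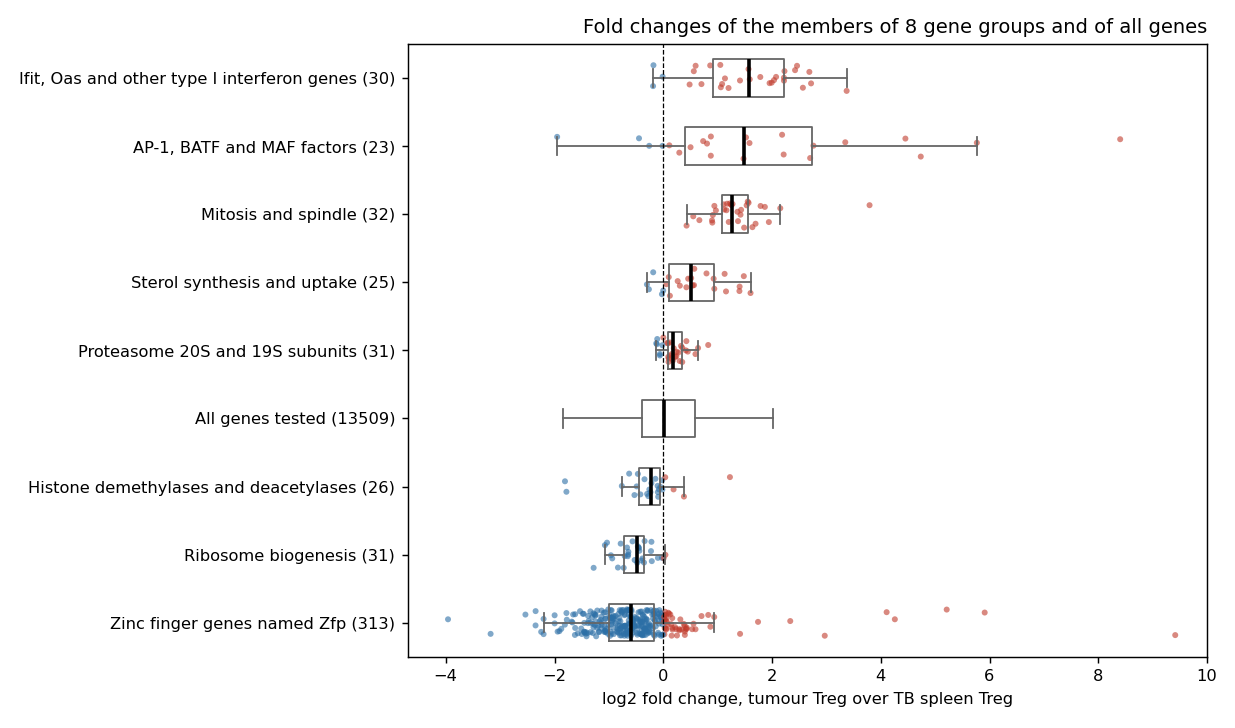
Log2 fold changes, tumour Treg over TB spleen Treg, for the tested members of 8 gene groups and for all genes, with 1 point per gene (red above 0, blue below), boxes for the quartiles, a line for the median and whiskers to the last gene within 1.5 box lengths. The Zfp and ribosome biogenesis groups lay mostly below 0 and the interferon, AP-1 and mitosis groups mostly above, while the proteasome subunits lay between −0.13 and 0.83 (median 0.18).

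Homing receptors, integrins and G protein-coupled receptors changed in both directions. Of selectin ligands, homing and retention genes 15 of 25 rose and 4 fell (median 0.69). Cxcr6, a receptor of tissue-resident T cells, had 63.9 and 55.2 CPM in tumour Treg, against 2.78 and 3.17 CPM in TB spleen Treg (4.32 ± 0.19). Ccr2, the receptor for Ccl2, had 751 and 821 CPM in tumour Treg, against 83.9 and 144 CPM in TB spleen Treg (2.79 ± 0.25), and Ccr8, typical of tumour Treg, had 523 and 462 CPM in tumour Treg, against 94.7 and 94.3 CPM in TB spleen Treg (2.38 ± 0.12). All 3 were high in both tumour libraries, and the spleen libraries differed most for Ccr2. In Tconv Cxcr6 was lower in tumour (−0.91) and Ccr2 was not called (−0.51), while Ccr8 was called higher. The change of Ccr8 in Treg minus that in Tconv was −1.03, so Ccr8 rose more in Tconv. Of 17 integrins 11 rose and 2 fell (median 1.43). Itgae, the CD103 chain that binds E-cadherin, had 666 and 600.1 CPM in tumour Treg, against 97.5 and 129.5 CPM in TB spleen Treg (2.48 ± 0.14), and Itgav, a chain of integrins that activate TGF-beta, had 765 and 762 CPM in tumour Treg, against 185 and 199 CPM in TB spleen Treg (1.99 ± 0.10). Both were also called higher in tumour Tconv, and the change in Treg minus that in Tconv was −1.24 for Itgae and 1.69 for Itgav. The LFA-1 chain Itgal (−0.37 ± 0.08) and the laminin receptor chain Itga6 (−0.52 ± 0.07) fell. S100 proteins, annexins and galectins rose in 19 of 23 and fell in 0 (median 1.21). S100a6, a calcium-binding protein, had 683 and 602 CPM in tumour Treg, against 129 and 172 CPM in TB spleen Treg (2.09 ± 0.27), and galectin-3, Lgals3, had 90.5 and 97.3 CPM in tumour Treg, against 11.6 and 15.8 CPM in TB spleen Treg (2.78 ± 0.28). Macrophages and fibroblasts also express these genes.

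Among orphan and lipid receptors 13 of 26 rose and 8 fell. The lysophospholipid receptor Gpr55 had 263 and 227 CPM in tumour Treg, against 45.9 and 51.1 CPM in TB spleen Treg (2.34 ± 0.11), the acid-sensing receptor Gpr65 299 and 286 CPM in tumour Treg, against 83.3 and 89.4 CPM in TB spleen Treg (1.76 ± 0.10) and the leukotriene receptor Ltb4r1 42.0 and 31.6 CPM in tumour Treg, against 4.33 and 5.84 CPM in TB spleen Treg (2.85 ± 0.24). These 3 receptors were several times higher in both tumour libraries, while Cnr2 and Gpr34 (−1.88 ± 0.12) fell. Genes of cyclic nucleotide signalling were split, 10 of 25 rising and 10 falling. The subunits of the nitric oxide receptor guanylate cyclase fell together, Gucy1a3 with 1.22 and 1.40 CPM in tumour Treg, against 39.9 and 34.8 CPM in TB spleen Treg (−4.83 ± 0.19) and Gucy1b3 with 2.13 and 1.92 CPM in tumour Treg, against 9.89 and 8.04 CPM in TB spleen Treg (−2.14 ± 0.22). The prostaglandin E receptor Ptger2 also fell (−1.65 ± 0.10), while the cyclic AMP modulator Crem had 591 and 599 CPM in tumour Treg, against 101 and 98.4 CPM in TB spleen Treg (2.58 ± 0.08) and the phosphodiesterase Pde4a rose (2.32 ± 0.19). Among the enzymes of extracellular ATP and adenosine, Entpd1, the CD39 ectonucleotidase, had 189.8 and 190.3 CPM in tumour Treg, against 69.3 and 78.0 CPM in TB spleen Treg (1.37 ± 0.13), the adenosine receptor Adora2a rose (0.84 ± 0.10), and P2rx7 and the adenosine deaminase-binding peptidase Dpp4 (−0.80 ± 0.10) fell. The Rgs proteins rose in 4 of 9 and fell in 2, with Rgs1, which restrains chemokine receptors, at 863 and 841 CPM in tumour Treg, against 221 and 199.7 CPM in TB spleen Treg (2.02 ± 0.16).

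Secreted factors changed in both directions. Of cytokines and growth factors made by T cells 13 of 25 rose and 9 fell. Hbegf, a second ligand of the epidermal growth factor receptor, had 19.6 and 27.6 CPM in tumour Treg, against 1.72 and 2.07 CPM in TB spleen Treg (3.64 ± 0.50). The B cell helper cytokine Il21 had 0 counts over the tumour libraries and 63 over the spleen libraries, which is at least 20.1-fold lower when 3 counts are taken as the floor for a group. The TNF family ligands Tnfsf14 (−3.55 ± 0.27), Tnfsf8 (−1.39 ± 0.10) and Lta, lymphotoxin alpha (−1.39 ± 0.10), fell. Of 14 chemokines 12 rose and 0 fell (median 3.68), taking up 0.0431% and 0.0441% of counts in tumour Treg, against 0.00313% and 0.00344% in TB spleen Treg. Ccl2, a monocyte attractant, was counted 975 times in tumour Treg and 0 times in TB spleen Treg, or at least 340.3-fold higher. A chemokine at 0 in TB spleen Treg could pass the count filter only through other libraries, so the number called higher was partly fixed by it. Macrophages and fibroblasts make Ccl2, and their markers moved in the same libraries. Of cytotoxic granule genes 10 of 16 rose and 0 fell (median 1.16), led by granzyme B, Gzmb, with 765 and 833 CPM in tumour Treg, against 52.2 and 84.5 CPM in TB spleen Treg (3.55 ± 0.26).

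Of 20 Treg identity genes 11 rose and 5 fell (median 0.61). Those that rose included Itgae, Ctla4, the signalling inhibitor Socs2 (83.8 and 81.4 CPM in tumour Treg, against 29.6 and 29.7 CPM in TB spleen Treg, 1.48 ± 0.16) and the actin-capping gene Capg (1.41 ± 0.11), and those that fell Gpr83, Folr4 and the receptor tyrosine kinase regulator Lrig1 (−0.75 ± 0.09). In the IL-33 pathway, 6 of 16 rose and 3 fell. Il1rl1, which encodes ST2, had 462 and 441 CPM in tumour Treg, against 59.9 and 86.9 CPM in TB spleen Treg (2.62 ± 0.27), whereas the downstream kinases Irak4 (−0.42 ± 0.07) and Map3k7, known as TAK1 (−0.31 ± 0.06), fell. The median of this list was 0.10, and it was −0.06 with library-size scaling.

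Interferon-induced genes were mostly higher. Of 30 Ifit, Oas and other type I interferon genes 27 rose and 0 fell (median 1.58), taking up 0.424% and 0.410% of counts in tumour Treg, against 0.204% and 0.246% in TB spleen Treg. Rsad2, the antiviral enzyme viperin, had 129 and 128 CPM in tumour Treg, against 16.6 and 22.6 CPM in TB spleen Treg (2.72 ± 0.23). Ifit3, an RNA-binding antiviral protein, had 163 and 166 CPM in tumour Treg, against 21.9 and 33.6 CPM in TB spleen Treg (2.57 ± 0.21), and Ifi44 had 62.7 and 61.3 CPM in tumour Treg, against 8.50 and 10.8 CPM in TB spleen Treg (2.69 ± 0.19). The tumour libraries lay close together, and the spleen libraries were lower throughout. Of the Gbp and Irg GTPases, which attack vacuoles of intracellular microbes, 11 of 16 rose and 1 fell (median 0.66). Gbp3 had 332 and 318 CPM in tumour Treg, against 133 and 141 CPM in TB spleen Treg (1.25 ± 0.09), and Igtp had 641 and 592 CPM in tumour Treg, against 255 and 286 CPM in TB spleen Treg (1.19 ± 0.09). Gbp8 fell, with 37.5 and 41.4 CPM in tumour Treg, against 59.8 and 60.2 CPM in TB spleen Treg (−0.60 ± 0.07). Gbp genes have near-identical copies, so single values of this family are uncertain. Of 19 genes of MHC class I presentation and the immunoproteasome 15 rose and 0 fell (median 0.55). The peptide transporter Tap1 had 894 and 718 CPM in tumour Treg, against 431 and 471 CPM in TB spleen Treg (0.84 ± 0.10), and Cd274, the inhibitory ligand PD-L1, had 224 and 255 CPM in tumour Treg, against 98.9 and 88.2 CPM in TB spleen Treg (1.36 ± 0.10).

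The promoters of these genes held matches to the interferon element more often than other promoters. They are shown beside promoters of other lists described here, each with the motif known for its genes. A RefSeq table of GRCm38.p6 (the same assembly as mm10) gave 300 bases per promoter, 250 before and 50 after the start. Each motif was searched on both strands, as GAAA and GAAA with any 2 bases between for the interferon element, TTTGAA for the cell cycle homology region, ACGTG for the core of the hypoxia element and GGG and TTTCC with any 2 bases between for one form of the NF-kB site. The patterns were searched separately, and a base could belong to more than one. Stretches are printed from 5' to 3' on the strand of the gene, and capitals mark matches, on either strand, to the motif of the list of that gene, while matches to the other motifs stay in lower case. The motif is the interferon element for the first 4, the cell cycle homology region for Prc1 and Top2a, the hypoxia core for Hilpda and the NF-kB form for Tnfaip3 and Nfkbia. They were taken from the well-counted called genes of a list with the largest increase whose promoter had a match before the start, which added Top2a and Hilpda to the genes named, chosen after their values were seen.
Gbp3 (chr3:142559955-142560043, plus strand): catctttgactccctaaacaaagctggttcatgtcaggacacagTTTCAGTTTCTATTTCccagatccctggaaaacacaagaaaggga
Igtp (chr11:58199472-58199555, plus strand): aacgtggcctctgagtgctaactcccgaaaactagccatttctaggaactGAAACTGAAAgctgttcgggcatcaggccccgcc
Rsad2 (chr12:26456513-26456622, minus strand): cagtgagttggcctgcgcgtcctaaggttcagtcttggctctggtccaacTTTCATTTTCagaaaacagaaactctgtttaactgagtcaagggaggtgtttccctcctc
Ifit3 (chr19:34583357-34583466, plus strand): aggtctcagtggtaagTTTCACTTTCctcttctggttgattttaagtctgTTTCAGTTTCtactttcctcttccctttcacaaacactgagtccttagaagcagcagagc
Prc1 (chr7:80294396-80294475, plus strand): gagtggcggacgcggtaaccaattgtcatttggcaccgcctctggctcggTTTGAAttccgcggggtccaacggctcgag
Top2a (chr11:99024190-99024262, minus strand): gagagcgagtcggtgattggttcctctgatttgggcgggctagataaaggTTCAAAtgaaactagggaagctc
Hilpda (chr6:29272533-29272625, plus strand): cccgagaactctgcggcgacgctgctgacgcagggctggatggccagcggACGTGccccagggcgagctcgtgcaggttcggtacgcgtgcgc
Tnfaip3 (chr10:19015411-19015472, minus strand): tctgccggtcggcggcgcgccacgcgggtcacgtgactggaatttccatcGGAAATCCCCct
Nfkbia (chr12:55492648-55492726, minus strand): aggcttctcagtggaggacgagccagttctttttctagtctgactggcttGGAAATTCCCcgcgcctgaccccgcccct

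For lists and tested genes, a gene with a promoter in the table was counted once if any of its promoters had a match. The share of all promoters in the table counts each promoter instead. The interferon element was found for 9 of 9 tested Gbp and Irg genes with a promoter and for 11 of 21 of the Ifit and Oas list (52.4%), against 3.75% of all tested genes and 3.44% of all promoters in the table. The promoter stretches of Gbp3 and Ifit3 each hold 2 matches, and those of Igtp and Rsad2 hold 1. The cell cycle homology region was found in 22 of 28 promoters of the mitosis list (78.6%) against 14.1% of tested genes and 17.9% of all, and the hypoxia core in 14 of 20 of the hypoxia list (70.0%) and 14 of 22 of glycolytic genes (63.6%) against 28.7% and 19.6%. The NF-kB form was found in 6 of 19 of the NF-kB list (31.6%) against 2.13% and 1.63%, and a second form, GGG and TTCCC with any 2 bases between, in 6 of 19 against 2.70% and 1.75%. The short heat shock element, GAA, TTC and GAA with any 2 bases after each of the first pair, matched 5 of 19 heat shock promoters against 0.582% and 0.603%, and CCAAT, which is common, matched 16 of 18 of sterol genes and 18 of 20 of unfolded protein response genes against 42.5% and 37.4%. The sterol regulatory element, TCAC and CCAC with any base between, matched 1 of 18 sterol promoters against 1.36% and 1.24%. The AP-1 site TGANTCA matched 0 of 19 promoters of AP-1 factors against 6.43% and 7.81%, and the cyclic AMP response element 1 of 18 of cyclic nucleotide genes against 3.52% and 1.79%. Among all genes called higher by 2-fold or more the interferon element was found in 4.78% and the hypoxia core in 24.7%. A match describes letters in a window and not a bound site.

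**Figure D4:**
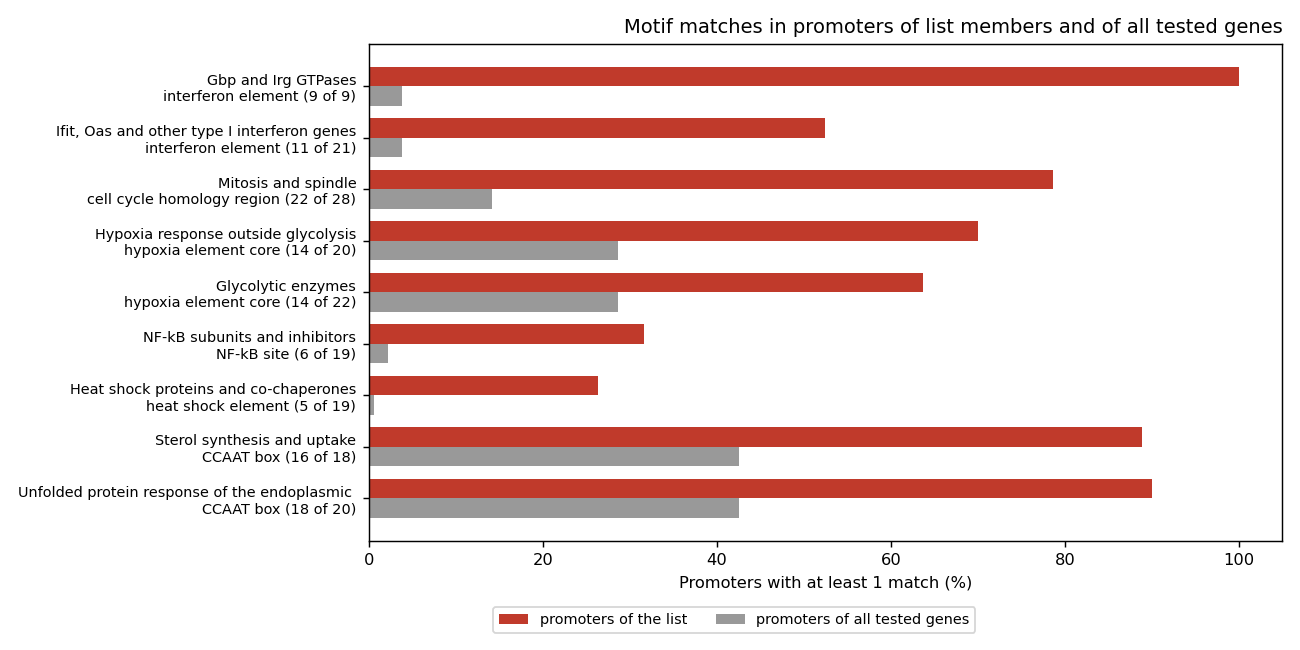
Share of genes with at least 1 promoter match to a named motif, among genes with a promoter searched, for the tested members of 9 gene lists (red) and for all tested genes (grey), with the number of members that had a match in brackets. The interferon element was found for every Gbp and Irg gene with a promoter searched, and each list exceeded the share in all tested genes for the motif shown.

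Genes of cell division rose together with inhibitors of division. All 32 tested genes of mitosis and the spindle rose (median 1.26), taking up 0.0819% and 0.0798% of counts in tumour Treg, against 0.0314% and 0.0410% in TB spleen Treg. Top2a, a topoisomerase of dividing cells, had 161 and 160.2 CPM in tumour Treg, against 51.5 and 72.5 CPM in TB spleen Treg (1.37 ± 0.15). Prc1, a spindle midzone protein, had 43.2 and 44.7 CPM in tumour Treg, against 9.49 and 14.6 CPM in TB spleen Treg (1.87 ± 0.24), and the actin-binding cytokinesis gene Anln had 40.3 and 42.5 CPM in tumour Treg, against 2.17 and 3.81 CPM in TB spleen Treg (3.79 ± 0.33). The spleen libraries differed from each other but stayed below both tumour libraries. In Tconv the median was 2.17, and 9 of the 32 members differed in site change between the cell types. Genes of DNA replication rose in 20 of 32 and fell in 2 by a smaller amount (median 0.36). Of cyclins, cyclin-dependent kinases and their inhibitors 18 of 27 rose and 6 fell. Besides Cdkn1a, the inhibitor Cdkn2a had 18.4 and 17.1 CPM in tumour Treg, against 0.245 and 0.423 CPM in TB spleen Treg (5.71 ± 0.51) and Ccnd1, a cyclin that T cells express little, had 22.4 and 27.8 CPM in tumour Treg, against 2.04 and 2.24 CPM in TB spleen Treg (3.54 ± 0.36). The T cell cyclins Ccnd2 (−0.35 ± 0.06) and Ccnd3 (−0.61 ± 0.09) fell, the first of them with 527 and 521 CPM in tumour Treg, against 644 and 688 CPM in TB spleen Treg. Tumour cells and fibroblasts also express Ccnd1 and Cdkn2a. Among survival genes, members of the BCL2 family changed in opposite directions. Bcl2 had 62.9 and 64.3 CPM in tumour Treg, against 240.3 and 219.9 CPM in TB spleen Treg (−1.86 ± 0.07), while its relative Bcl2l1 had 187 and 176 CPM in tumour Treg, against 58.0 and 58.6 CPM in TB spleen Treg (1.64 ± 0.10) and the proapoptotic p53 target Pmaip1 had 222 and 193 CPM in tumour Treg, against 28.9 and 33.4 CPM in TB spleen Treg (2.73 ± 0.14).

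Ribosome biogenesis genes were mostly lower, and more genes of the unfolded protein response and of autophagy rose than fell. Of 31 genes of ribosome biogenesis 27 fell and 0 rose (median −0.48), taking up 0.250% and 0.258% of counts in tumour Treg, against 0.358% and 0.348% in TB spleen Treg. Polr1b, a core subunit of RNA polymerase I, had 14.2 and 12.4 CPM in tumour Treg, against 32.1 and 32.6 CPM in TB spleen Treg (−1.28 ± 0.11), and the nucleolar methyltransferase Nop2 had 24.1 and 22.6 CPM in tumour Treg, against 48.6 and 47.2 CPM in TB spleen Treg (−1.03 ± 0.07). Myc, which drives this programme, had 53.7 and 65.2 CPM in tumour Treg, against 124 and 108 CPM in TB spleen Treg (−0.96 ± 0.12). The decrease held in both tumour libraries for each of these genes. In the proteasome 16 of 31 subunits rose and 0 fell, by small amounts (median 0.18). Psmb7 had 98.1 and 93.2 CPM in tumour Treg, against 62.6 and 64.3 CPM in TB spleen Treg (0.59 ± 0.06). With library-size scaling 8 rose and 5 fell (median 0.02). In Tconv 1 subunit rose and 7 of 31 fell (median −0.12), against 26.4% of all genes higher and 22.8% lower there, and 16 of the 31 differed in site change. The unfolded protein response rose in 17 of 24 and fell in 1 (median 0.38), with the chaperone Hspa5, or BiP, at 963 and 850.5 CPM in tumour Treg, against 561 and 521 CPM in TB spleen Treg (0.74 ± 0.09) and its transcription factor Xbp1 at 173 and 156 CPM in tumour Treg, against 95.4 and 96.6 CPM in TB spleen Treg (0.78 ± 0.08). NRF2 targets, thioredoxins and ferritins rose in 20 of 26 and fell in 2 (median 0.43), including ferritin heavy chain, Fth1 (1615 and 1943 CPM in tumour Treg, against 748 and 688 CPM in TB spleen Treg, 1.31 ± 0.09), and sulfiredoxin, Srxn1 (1.94 ± 0.31). Autophagy genes rose in 14 of 24 and fell in 1, with the receptor Sqstm1 at 637 and 635 CPM in tumour Treg, against 282 and 280.1 CPM in TB spleen Treg (1.18 ± 0.07), and genes of the proton pump and lysosome rose in 16 of 28 and fell in 1, with Lamp2 at 1.20 ± 0.12. The metallothionein Mt1 also rose (57.8 and 61.9 CPM in tumour Treg, against 1.84 and 1.65 CPM in TB spleen Treg, 5.09 ± 0.43).

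Lipid synthesis and hypoxia genes rose, and glycolysis rose in part. Of 25 genes of sterol synthesis and uptake 16 rose and 0 fell (median 0.51). Cyp51, a demethylase of the pathway, had 102 and 110.0 CPM in tumour Treg, against 30.6 and 39.0 CPM in TB spleen Treg (1.60 ± 0.13), and Insig1, its feedback regulator, had 59.2 and 62.2 CPM in tumour Treg, against 21.0 and 24.9 CPM in TB spleen Treg (1.40 ± 0.09). In Tconv the median of this list was −0.02, with 6 of 25 higher and 3 lower, against 26.4% and 22.8% of all genes there. Fatty acid and triglyceride synthesis rose in 17 of 28 and fell in 7 (median 0.37). Dgat2, which makes triglyceride, had 129 and 102 CPM in tumour Treg, against 13.9 and 14.3 CPM in TB spleen Treg (3.04 ± 0.12), while the desaturase Scd2 had 109 and 122 CPM in tumour Treg, against 213 and 209.8 CPM in TB spleen Treg (−0.87 ± 0.10). Outside glycolysis 13 of 24 hypoxia genes rose and 3 fell (median 0.24). Ndrg1, a stress-induced differentiation gene, had 357 and 344 CPM in tumour Treg, against 34.2 and 36.8 CPM in TB spleen Treg (3.30 ± 0.07), Vegfa, a growth factor of blood vessels, had 8.33 and 11.6 CPM in tumour Treg, against 0.245 and 0.339 CPM in TB spleen Treg (5.07 ± 0.41), and Hilpda, a lipid droplet protein induced by low oxygen, had 142 and 117 CPM in tumour Treg, against 14.1 and 12.1 CPM in TB spleen Treg (3.30 ± 0.12). The pyruvate dehydrogenase kinase Pdk1, also a hypoxia target, fell (−0.92 ± 0.07). Of glycolytic genes 11 of 23 rose and 5 fell (median 0.20). The lactate exporter Slc16a3 had 203 and 175 CPM in tumour Treg, against 54.9 and 51.5 CPM in TB spleen Treg (1.83 ± 0.14) and the first enzyme Hk2 15.6 and 21.5 CPM in tumour Treg, against 7.48 and 8.13 CPM in TB spleen Treg (1.25 ± 0.19), while Ldhb (−0.84 ± 0.09) and the glucose transporter Slc2a3 (−0.45 ± 0.07) fell. Amino acid transporters rose in 12 of 20 and fell in 2, among them Slc3a2, the shared heavy chain (386 and 423 CPM in tumour Treg, against 153 and 148 CPM in TB spleen Treg, 1.42 ± 0.07). The tricarboxylic acid cycle (7 of 27 higher, 3 lower) and fatty acid oxidation (8 of 22 higher, 2 lower) had medians of 0.05 and 0.11, which turned to −0.11 and −0.05 with library-size scaling.

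Most increases of 16-fold or more were also called between tumour Tconv and TB spleen Tconv, as given above, and the difference of the site change between Treg and Tconv was tested gene by gene. It was called for 3337 genes (24.7%), 1574 of them with the higher value in Treg (11.7%) and 1763 with the lower (13.1%). The count was 2161 without TB spleen Treg library 1. The lists with the largest share of such members were homing genes (18 of 25), naive T cell and FOXO factors (15 of 21), Treg identity genes (13 of 20), TGF-beta and SMAD genes (13 of 20) and cytokine receptor subunits (16 of 25). Among cytokine receptors Il18rap, a chain of the interleukin 18 receptor, had 91.3 and 97.2 CPM in tumour Treg, against 31.7 and 51.7 CPM in TB spleen Treg (1.18 ± 0.21) and was not called in Tconv (−0.25), and Il6ra fell (−1.26 ± 0.10; −0.20 in Tconv). The ligand Tgfb3 had 23.4 and 24.2 CPM in tumour Treg, against 1.59 and 1.19 CPM in TB spleen Treg (4.09 ± 0.25; 1.27 in Tconv). Interferon genes had a median of 1.58 in Treg and 0.80 in Tconv, with 18 of 30 members differing. For chemokines the medians were 3.68 and 3.24, with 3 of 14 differing. No tested fibroblast, macrophage or neutrophil marker differed in site change between the cell types (neutrophil median of Treg minus Tconv, −2.56). Those that differed were 1 of 16 epithelial, 1 of 6 endothelial, 1 of 6 dendritic cell, 1 of 2 B cell and 3 of 6 CD8 T and NK cell markers.

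**Figure D5:**
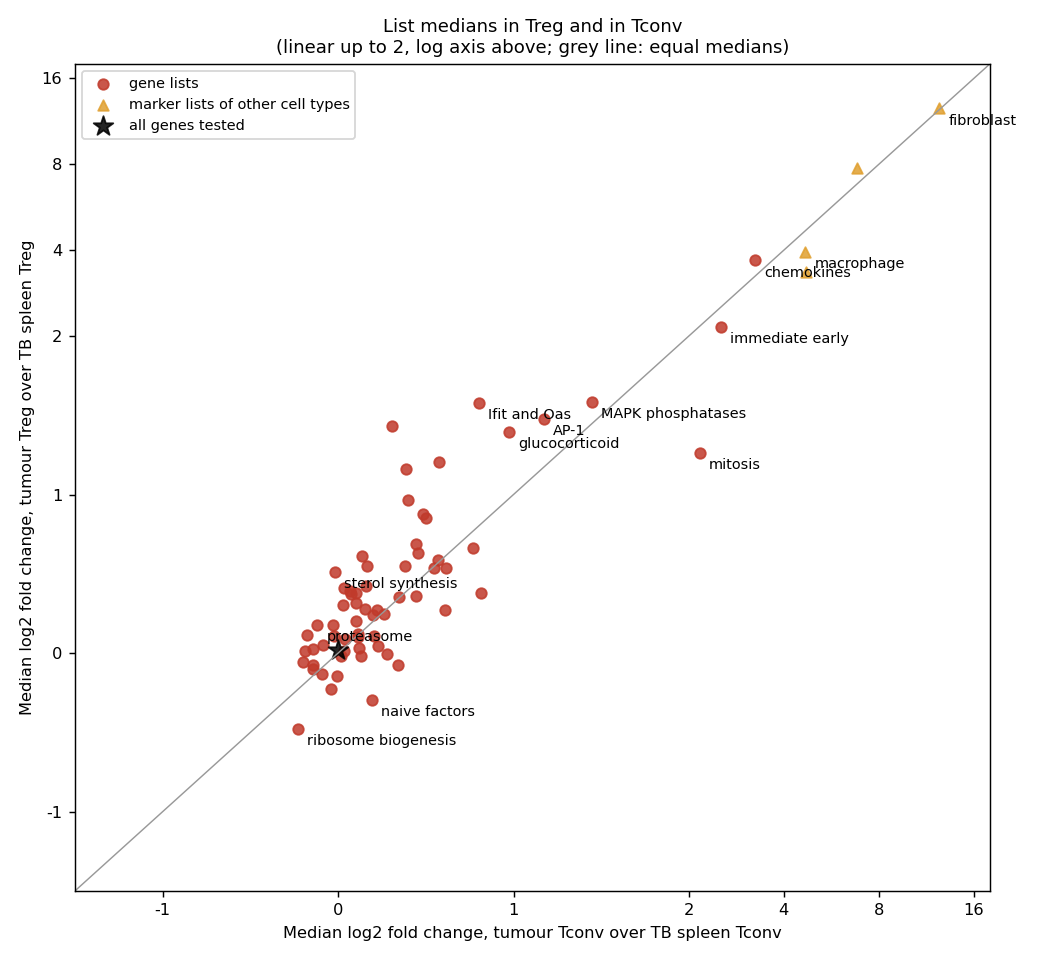
Median log2 fold change of each gene list with 9 or more tested members in Treg (vertical axis, tumour over TB spleen) against that in Tconv (horizontal axis), both linear up to 2 and logarithmic above, with marker lists of other cell types as triangles, all tested genes as a star and a grey line for equal medians. Mitosis lies below the line, and interferon genes and sterol synthesis lie above it.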

How the data were processed

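Sorted CD4+ T cells of 6 groups with 2 libraries each were sequenced from stranded mRNA libraries, per the labels. The deposited table holds raw read counts per gene. The submitters' processing notes name STAR, featureCounts and mm10, with no setting for strand, so reads of genes that overlap on opposite strands may be shared. The members and lists were chosen with earlier results of these data known. Groups were taken from the sample titles.

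Counts were fitted with edgeR 4.0.16 in R 4.3.3 (filterByExpr by group, TMM, quasi-likelihood test) in 1 model of all 12 libraries and 6 group means, leaving 6 residual degrees of freedom, with a biological coefficient of variation of 0.0863. Adjusted p values are Benjamini-Hochberg over 13509 genes. The site difference between Treg and Tconv was a contrast in the same fit. The fit was also run on simulated counts with known changes for this comparison over 13509 genes. These were made after the main fit, from its dispersions and library sizes, and the outcome is not given here. Replicate libraries differed beyond sampling noise (mean chi-square per gene of 14.9 for tumour Treg and 6.62 for TB spleen Treg). Depth was 22004608 to 24111546 counts in the libraries compared, and where a group had 0 counts the fold is a bound from 3 counts per group, covering counting error only.

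Named genes were Foxp3 and Il1rl1, the 12 largest changes in each direction among well-counted genes without overlap, and the 10 largest gains and losses in CPM. Gene models, receptor segments, pseudogenes and markers of other cells were passed over for these changes, gains and losses. Added were the 4 largest called changes of each list in each direction, and the best-counted member of a list with fewer than 4 calls. Which of the genes chosen by this rule are printed, together with Cd4, Dusp1, Top2a and Hilpda, was chosen after their values were seen. Alternatives were DESeq2 1.42.0, limma-voom (limma 3.58.1), DESeq2 size factors, library-size scaling, other filters, fits on fewer libraries, a replicate block, a robust fit, a threshold of 0.01 and leaving out each library. Promoters came from a RefSeq table of GRCm38.p6, matched by symbol for 10133 tested genes. Lists carry no set test. Plots used Python 3.11.15 and matplotlib 3.10.9.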

Additional observations from a re-analysis of the deposited data

Results flagged for a closer look

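Of the 171 genes named above, 103 had a site change (tumour over TB spleen, log2) that differed between Treg and Tconv by the test of that difference at an adjusted p under 0.05 (edgeR), against 24.7% of all genes tested. The values below are the change in Treg minus the change in Tconv. The size of the Treg change was among the reasons for naming a gene and enters this difference, so the share of named genes is not comparable with that of all genes. 

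4 genes were higher in tumour Treg and lower in tumour Tconv, with a more positive change in Treg. These were Cxcr6 (5.23), Id2 (3.94), Vdr (3.60) and Socs2 (2.35).

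2 genes were lower in tumour Treg and higher in tumour Tconv, with a more negative change in Treg. These were Spry1 (−2.13) and Lrig1 (−1.54).

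11 genes were higher in tumour Treg and not called in Tconv, with a more positive change in Treg. These were Plac8 (5.96), Ccr2 (3.30), Ltb4r1 (2.01), Gpr65 (1.69), Entpd1 (1.68), N4bp1 (1.63), Il18rap (1.43) and Bcl2l1 (1.41). Next came Tap1 (0.84), Adora2a (0.77) and Psmb7 (0.51).

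22 genes were lower in tumour Treg and not called in Tconv, with a more negative change in Treg. These were Hdac9 (−2.55), Tcf7 (−2.46), Eomes (−2.23), Bach2 (−2.14), Klf3 (−1.98), Egr2 (−1.95), Gucy1b3 (−1.68) and Tnfrsf26 (−1.48). Next came Id3 (−1.23), Smc4 (−1.20), Utrn (−1.19), Il6ra (−1.06), Prkcq (−0.88), Ldhb (−0.86), Scd2 (−0.75) and Dpp4 (−0.72). Smaller differences were found for Nfatc1 (−0.68), Itga6 (−0.67), Ikbke (−0.63), Hdac7 (−0.59), Gbp8 (−0.50) and Map3k7 (−0.31).

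26 genes were called higher in tumour in both cell types, with a more positive change in Treg. These were Sv2c (3.16), Hilpda (2.91), Tgfb3 (2.82), Sgk1 (2.08), Gzmb (2.05), Itgav (1.69), Ndrg1 (1.68) and Gpr55 (1.60). Next came Ifi44 (1.33), Gem (1.16), Dgat2 (1.04), Vim (1.04), Ifit3 (0.96), Tnfrsf9 (0.81), Nfkbiz (0.79) and Dusp4 (0.78). Smaller differences were found for Zc3h12a (0.75), Cyp51 (0.71), Capg (0.61), Rgs2 (0.47), Igtp (0.43), Fth1 (0.38), Sla (0.38) and Nfkbia (0.36). The group also held Slc3a2 (0.31) and Sqstm1 (0.29).

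13 genes were called higher in tumour in both cell types, with a more negative change in Treg. These were Il1rl1 (−2.39), Hk2 (−2.01), Rgs1 (−1.68), P2ry10 (−1.63), Crem (−1.46), Cdkn1a (−1.45), Tnfaip3 (−1.31) and Fosl2 (−1.29). Next came Itgae (−1.24), Ccr8 (−1.03), Dusp5 (−0.88), Tnfrsf1b (−0.54) and Fam107b (−0.32).

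2 genes were called lower in tumour in both cell types, with a more positive change in Treg. These were Ccnd2 (0.52) and Zbtb7b (0.46).

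23 genes were called lower in tumour in both cell types, with a more negative change in Treg. These were Gucy1a3 (−3.57), Aff3 (−2.42), Tbc1d4 (−2.38), Dzip1 (−2.00), Nsg2 (−1.99), Gpr83 (−1.83), Hivep3 (−1.62) and Cxcr5 (−1.23). Next came Bcl2 (−1.19), Tnfsf8 (−1.15), Txnip (−1.14), Tet1 (−1.13), Tnfsf14 (−1.10), Btla (−1.09), Lax1 (−0.98) and Dtx1 (−0.97). Smaller differences were found for Egr3 (−0.80), Pik3ip1 (−0.67), P2rx7 (−0.62), Folr4 (−0.62), Lta (−0.60), Pdk1 (−0.56) and Nop2 (−0.49).

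With 2 libraries a group, single libraries that stand apart were not searched for.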

How the results depend on the processing

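Over the alternatives run, the number of genes called stayed within 1.5 times of 8299, from 6643 at a threshold of 0.01 to 8839 without tumour Tconv library 2, and was 6846 without TB spleen Treg library 1. Leaving out 1 library gave 3695 to 4677 genes higher, 3151 to 4240 lower, 57 to 60 lists with more members higher than lower, and 438 to 465 of the genes chosen by rule called, against 464. DESeq2 called 7435 genes and limma-voom 8447. Library-size scaling gave 8758 calls, of which 39.9% were higher, against 53.3% with TMM, and left 49 lists with more members higher. The number of genes whose site change differed between Treg and Tconv ranged from 2161 (without TB spleen Treg library 1) to 3679 when 1 library was left out, and was 1731 at a threshold of 0.01, where fewer genes pass by construction. The cause of the lower count without that library was not tested. Of 3933 values of named genes under alternatives, 3926 kept their side of the threshold. A change of sign was not counted for a gene called in neither the main fit nor the alternative. The other 7 were Foxp3 under 6 alternatives, given above, and Cd4, which was called lower with library-size scaling (−0.25). No named gene changed direction where it was called in the main fit or in the alternative. With the replicate number as a block 8371 genes were called, and 3482 for the site difference. The deviations of same-numbered tumour and TB spleen Treg libraries had a correlation of −0.02, and those of the other pairs of TB groups lay between −0.04 and 0.15, so the numbers were not shown to pair the libraries. The fit on the Treg libraries alone cannot give the site difference. Depth limits genes with few counts: 675 of the 902 genes with at least a 16-fold increase had at most 3 counts in TB spleen Treg.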
